A study of Mus musculus with 5 samples.

Results

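The lysosomal genes of splenic natural killer (NK) cells were described here: every gene of the deposited table whose symbol names a lettered cathepsin (except Ctsw and Ctsg), a subunit of the vacuolar proton pump (symbols starting with Atp6v) or Lamp1 or Lamp2, plus 14 further lysosomal genes chosen by name. That rule gave 44 of the 13004 genes listed. They comprised 11 cathepsins, 7 other hydrolases and cofactors, 8 membrane and lipid transport proteins, 17 proton pump subunits and the regulator gene Tfeb. RNA came from spleens of 8-week-old C57BL/6 mice, from live cells sorted as positive for NK1.1 and DX5 and negative for CD3, and 51-base single reads were sequenced. The 3 control libraries (controls 1, 2 and 3) had the genotype Mycf/f, in which the Myc alleles carry loxP sites. The 2 MycKO libraries (MycKO 5 and 6) had the genotype Mycdelta/delta/Ncr1Cre, in which Cre recombinase is made under Ncr1, a gene of NK cells and a few related lymphocytes. The labels name no Cre for the controls, so the Cre allele and the deletion differ together between the groups and cannot be told apart. Whether each library had its own mouse is not said either, so the p-values measure the spread between these libraries, which may be technical. Errors given as ± are SDs over the 3 controls or the 2 MycKO libraries.

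Lysosomes are acidic organelles in which proteins, lipids and sugars are broken down. A multi-subunit pump, the vacuolar ATPase, drives protons inward, cathepsins and other hydrolases work at the resulting low pH, and heavily glycosylated membrane proteins such as LAMP1 shield the boundary. In NK cells the lytic granules that hold perforin and granzymes are lysosome-related organelles, and LAMP1 (CD107a) reaches the cell surface when they are released. Macrophages, which digest engulfed material, are known for much larger amounts of many lysosomal proteins. Many lysosomal genes are controlled by TFEB and its relatives, which bind promoter elements built around the E-box CACGTG, and MYC with its partner MAX binds the same core letters.

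The values were RPKM (reads scaled by transcript length and by library depth), so levels can be compared between genes. Reads in the listed genes came to 14290690 to 17610826 in the controls, 5451728 in MycKO 5 and 13337084 in MycKO 6, which leaves MycKO 5 with the largest counting error. Myc itself was at 13, 23 and 21.2 RPKM in controls 1, 2 and 3, against 12.5 and 8.70 RPKM in MycKO 5 and 6. Both MycKO libraries lay below every control, but the log2 fold change of -0.77 did not pass limma (adjusted p = 0.297), and the sources used here do not give where the deleted part lies. The sorted cells carried NK transcripts at high level, with the 10 NK markers summing to 12329.3 to 14354.3 RPKM in the controls, against 9706.5 and 11441.8 RPKM in MycKO 5 and 6. The largest part was Gzma, with means of 6910.0 RPKM in the controls and 5159.5 RPKM in MycKO. None of the 10 passed limma, and their log2 fold changes were below 0 for 8 and above 0 for 2 (Klrd1 and Klrb1c). In 6 of the 10 both MycKO libraries lay below all controls (10.4% of all genes tested), and 6 had an unadjusted p under 0.05 (13.2% of all genes). Limma-voom, run on reads worked out from the RPKM values, called Gzma, Tbx21 and Prf1 lower (adjusted p = 0.0242, 0.0313 and 0.0336), against 0.241% of all genes tested. For each list of markers of other blood and spleen cells, the summed level was above 0 in all 5 libraries and higher in both MycKO libraries than in any control. The 18 macrophage markers summed to 308.3 to 442.4 RPKM over the controls, and to 1660.9 and 1671.3 RPKM in MycKO 5 and 6, with none at 0 in either MycKO library and 13 of 17 tested higher. The 8 dendritic cell markers summed to 362.9 to 487.8 RPKM over the controls, and to 1043.4 and 716.5 RPKM in MycKO 5 and 6. The 2 of 8 called higher were H2-Ab1 and Cd74. These 2 and Itgax, which did not pass, made up nearly all of the sum, with control means of 63.4, 148.5 and 193.8 RPKM. Flt3, Xcr1, Clec9a, Siglech and Zbtb46 each had a control mean of 1.73 RPKM or less and did not pass. The sums were at most 78.3 RPKM in a control and 566.8 and 232.3 RPKM in MycKO 5 and 6 for 7 neutrophil markers, 135.0 RPKM and 334.1 and 670.2 RPKM for 6 B and plasma cell markers, and 33 RPKM and 119.9 and 175.5 RPKM for 7 T cell markers. For 5 basophil and mast cell markers they were 3.75 RPKM and 59.6 and 8.7 RPKM, and for 8 erythroid and platelet markers 10.7 RPKM and 220.0 and 101.7 RPKM. Of those tested, limma called higher 2 of 6 neutrophil, 1 of 6 B and plasma cell and 3 of 6 T cell markers. It called 0 of 4 basophil and mast cell and 3 of 8 erythroid and platelet markers. Over all genes tested, 1.24% were called higher. In RNA from sorted cells, more cells of a type and more RNA per cell cannot be told apart.

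Of the 44 lysosomal genes, 8 were higher in MycKO and none was lower at a limma adjusted p under 0.05. The 8 were Ctsb, Ctsh, Ctss, Lgmn, Creg1, Hexa, Cd68 and Lamp1. Over all 11190 genes tested, 1.24% were called higher and 0.0983% lower. Limma-voom on the worked-out reads called 9 of the lysosomal genes higher and none lower (1.83% and 0.241% of all genes tested), and the authors' deposited table called 10 higher and none lower (2.9% and 0.5% of all genes listed). Without control 2, limma called 7 of these 8 genes, losing Hexa, and also Psap. Without control 1, control 3 or MycKO 5 it called 3 of the 8 (Ctsb, Creg1 and Lgmn), and without MycKO 6 it called 2 of them (Ctsb and Creg1) and Ctsz. An unadjusted p under 0.05 was reached by 16 of the 41 tested, against 13.2% of all genes tested. The filter of at least 1 RPKM in at least 2 libraries kept 41 lysosomal genes. Of these, 3 (Ctsf, Atp6v0a1 and Atp6v1g2) reached 1 RPKM in at most 1 control and passed only with the MycKO libraries, and all 8 called genes were among the other 38. The median log2 fold change over the 41 was 0.32, against 0.05 over all genes tested. In 23 of the 41 both MycKO libraries lay above all controls, as they did in 18.8% of all genes tested, and in none did both lie below. The 23 include the 3 genes that passed the filter only with the MycKO libraries. Over the other 38, both MycKO libraries lay above all controls in 20, and 14 (36.8%) had an unadjusted p under 0.05. Their median log2 fold change was 0.31. The log2 fold changes are of RPKM + 1, MycKO minus control, which understates changes of genes at low level.

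**Figure D1:**
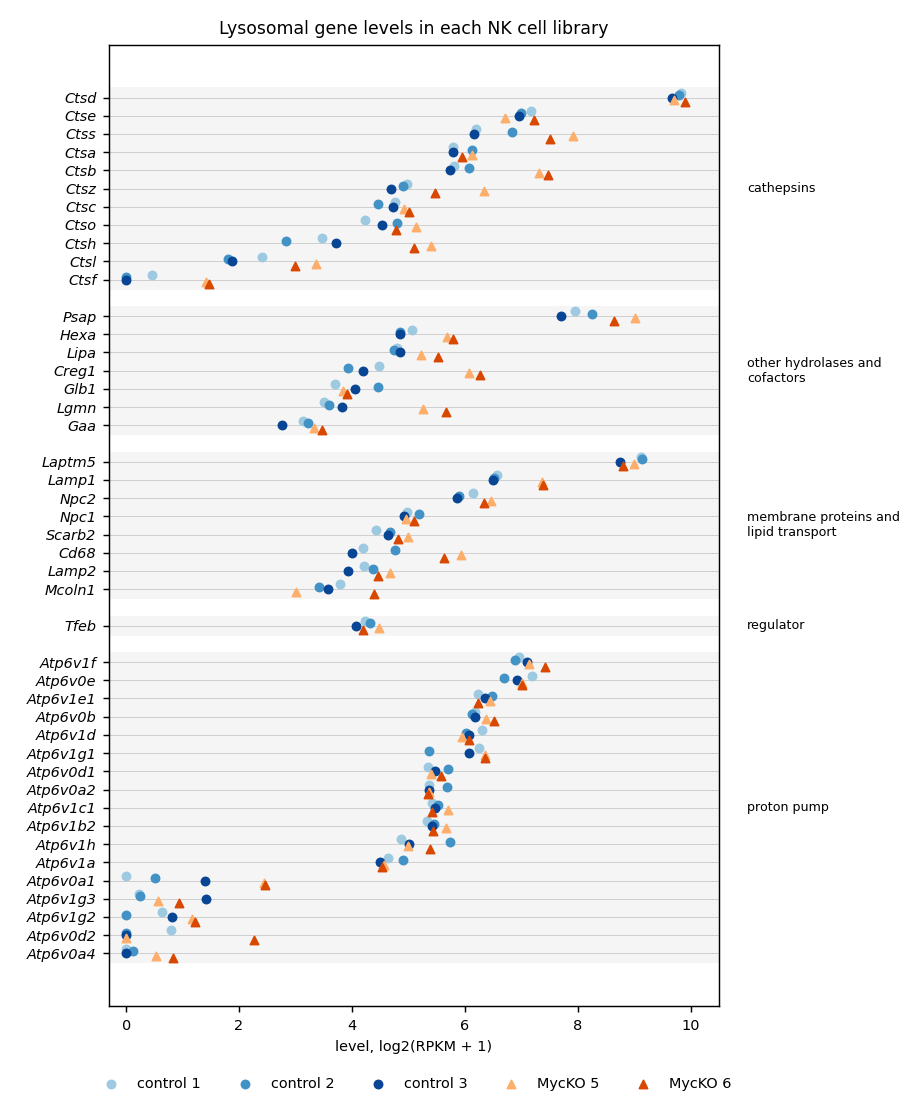
Level of each of the 44 lysosomal genes in each library, as log2(RPKM + 1), by role and by control mean (circles, controls 1 to 3; triangles, MycKO 5 and 6). The triangles stand apart from the circles for Ctsb, Creg1, Lgmn and Lamp1 and lie among them for Ctsd and most of the pump subunits.

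Among the cathepsins, 3 of 11 rose (Ctsb, Ctsh and Ctss), none fell, and Ctsd, the most abundant in every library, did not pass. Ctsb encodes a cysteine protease that works as an endopeptidase and a dipeptidase (Entrez 13030; mm10 chromosome 14, 63122462 to 63145923, plus strand). Its level was 55.2, 66.2 and 52.3 RPKM in controls 1, 2 and 3, against 157.1 and 176.5 RPKM in MycKO 5 and 6. Both MycKO libraries lay well above every control. The means were 57.9 ± 7.35 RPKM (SD, n = 3) and 166.8 ± 13.7 RPKM (SD, n = 2). The log2 fold change was 1.51 (95% interval 1.20 to 1.83) with a limma adjusted p of 0.00776. Ctsb was called without each of the 5 libraries in turn.

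Ctsh encodes an aminopeptidase of the cathepsin family (chromosome 9, 90054152 to 90076089, plus strand). It was at 10.1, 6.09 and 12.1 RPKM in the controls, against 41.1 and 33.1 RPKM in MycKO 5 and 6, a log2 fold change of 1.91 (limma adjusted p = 0.0279). Control 2 was lowest and MycKO 5 highest, with no overlap. Ctss encodes the protease that trims the invariant chain of MHC class II in antigen-presenting cells (chromosome 3, 95526786 to 95556403, plus strand). It was at 72.7, 113.0 and 70.4 RPKM in the controls, against 239.8 and 180.8 RPKM in MycKO 5 and 6, a log2 fold change of 1.31 (limma adjusted p = 0.0431). Control 2 was here the highest control, and the groups did not overlap. Ctsh and Ctss were called without control 2 and lost the call without any other single library, where their adjusted p-values reached 0.195 and 0.282. Ctss also missed the threshold under both other scalings (adjusted p = 0.0537 and 0.0512).

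The 2 cathepsin transcripts of highest control mean did not pass. Ctsd encodes the major aspartic protease of lysosomes (chromosome 7, 142375911 to 142388038, minus strand) and was the highest of all 44 genes, at 904.5, 887.7 and 816.7 RPKM in the controls, against 833.9 and 958.2 RPKM in MycKO 5 and 6. The groups overlapped, and the log2 fold change was 0.04 with a 95% interval of -0.23 to 0.31, whose sign turned under both other scalings. A rise as large as that of Ctsb lies outside this interval. Ctsd shares 34.4% of its exon bases with the overlapping gene model Gm49369 on the same strand, so how its reads were assigned is uncertain. Ctse, an aspartic protease of endosomes, was at 143.6, 126.4 and 123.1 RPKM in the controls, against 104.2 and 149.2 RPKM in MycKO 5 and 6, so that the MycKO libraries enclosed all controls. Ctsc, which encodes the dipeptidase that activates granzymes, was at 24.2 ± 2.63 RPKM (SD, n = 3) and 30.3 ± 1.12 RPKM (SD, n = 2), a log2 fold change of 0.32 that did not pass (limma adjusted p = 0.427).

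Of the remaining cathepsins, Ctsz was at 30.5, 29.1 and 25.0 RPKM in the controls, against 80.4 and 43.4 RPKM in MycKO 5 and 6. It encodes a carboxypeptidase, and its large distance between the MycKO libraries went with a limma adjusted p of 0.109. The authors' deposited table called it, with a log2 ratio of 1.07 and an adjusted p of 0.00354. Ctsl (3.15 ± 1.01 and 8.12 ± 1.67 RPKM) and Ctsf (0.123 ± 0.214 and 1.73 ± 0.0799 RPKM) did not pass, and Ctsf rested on 11, 0 and 0 reads in the controls and 18 and 47 in MycKO 5 and 6. Ctsa, the protective protein for beta-galactosidase and neuraminidase, and Ctso had log2 fold changes of 0.14 and 0.44 and did not pass. Ctsl shares 26.8% of its annotated exon bases with a gene on the opposite strand, and the sources used here do not say whether counting used strand.

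Of the 7 other hydrolases and cofactors, 3 rose (Creg1, Lgmn and Hexa) and none fell. Creg1 encodes a secreted and lysosomal glycoprotein linked to cell differentiation (Entrez 433375; chromosome 1, 165763746 to 165775308, plus strand). It had the largest log2 fold change of the tested lysosomal genes, at 21.3, 14.3 and 17.3 RPKM in the controls, against 66.1 and 76.5 RPKM in MycKO 5 and 6. The log2 fold change was 1.97 (95% interval 1.54 to 2.40; limma adjusted p = 0.00781), and the call held without each library in turn. Lgmn encodes legumain, the asparaginyl endopeptidase that also processes cathepsins (chromosome 12, 102394084 to 102439813, minus strand). It was at 10.4, 11.1 and 13.2 RPKM in the controls, against 37.5 and 49.6 RPKM in MycKO 5 and 6, a log2 fold change of 1.82 (95% interval 1.38 to 2.26; limma adjusted p = 0.00848). The call was narrowly lost without MycKO 6 (adjusted p = 0.0509). Hexa encodes the alpha subunit of beta-hexosaminidase (chromosome 9, 59539540 to 59565109, plus strand). It was at 32.5, 27.9 and 28 RPKM in the controls, against 50.2 and 54.1 RPKM in MycKO 5 and 6, a log2 fold change of 0.81 (limma adjusted p = 0.0387). Its groups did not overlap, but the call was lost whichever library was left out, with adjusted p-values of 0.0553 to 0.224, and under median-of-ratios scaling (0.0538).

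Psap, the precursor of the saposins that present sphingolipids to their hydrolases, was the most abundant of these 7 genes. It was at 245.2, 302.6 and 207.4 RPKM in the controls, against 519.1 and 396.4 RPKM in MycKO 5 and 6, a log2 fold change of 0.86 that did not pass limma (adjusted p = 0.0789). The groups did not overlap. Without control 2 it passed (1.01, adjusted p = 0.0321), as it did in limma-voom (0.0134) and in the authors' deposited table (0.80, adjusted p = 0.000634). Lipa, the acid lipase, was at 26.8 ± 0.891 RPKM (SD, n = 3) and 40.8 ± 6.18 RPKM (SD, n = 2), also without overlap and not past the threshold (adjusted p = 0.124). The acid alpha-glucosidase gene Gaa (0.36) and the beta-galactosidase gene Glb1 (-0.20) did not pass, with 95% intervals of -0.19 to 0.92 and -0.76 to 0.36.

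**Figure D2:**
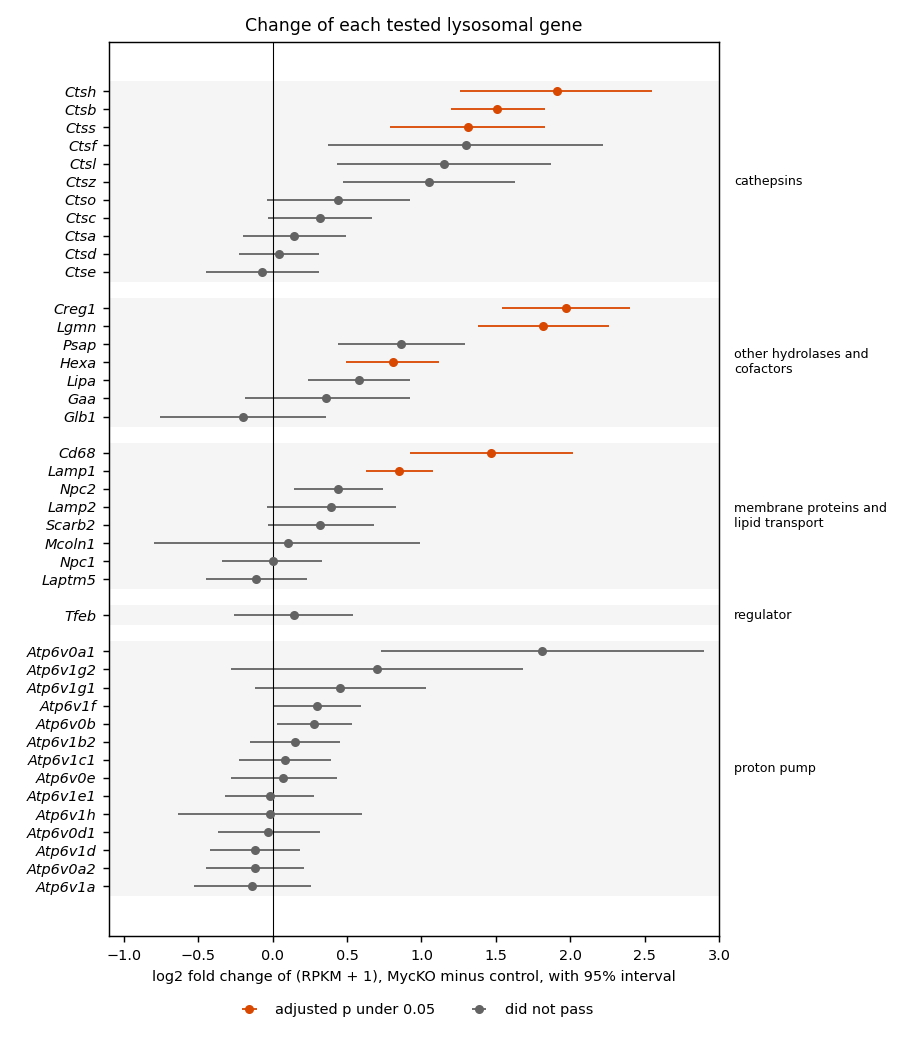
Log2 fold change of RPKM + 1, MycKO minus control, of each of the 41 tested lysosomal genes by role, with its 95% interval from limma (orange, adjusted p under 0.05; grey, did not pass). The 8 orange genes are spread over 3 roles, and the 12 pump subunits with a mean of at least 5 RPKM lie between -0.14 and 0.45.

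Among the 8 membrane and lipid transport proteins, Lamp1 and Cd68 rose and none fell. Lamp1 encodes the most familiar lysosomal membrane glycoprotein (Entrez 16783; chromosome 8, 13159161 to 13175338, plus strand). It was at 94.0, 90.3 and 89.1 RPKM in the controls, against 164.6 and 166.1 RPKM in MycKO 5 and 6. Both groups were tight, and the MycKO mean was 1.81 times the control mean. The log2 fold change was 0.85 (95% interval 0.63 to 1.08; limma adjusted p = 0.0131), it lay at 0.84 to 0.87 without each library in turn, and the adjusted p rose to 0.056 to 0.0917 without control 1, control 3, MycKO 5 or MycKO 6. The call was also lost without the variance trend of the fit (0.066). Cd68, which encodes a LAMP family protein abundant in macrophages (chromosome 11, 69664213 to 69666153, minus strand), was at 17.3, 26 and 15 RPKM in the controls, against 60.0 and 48.7 RPKM in MycKO 5 and 6. Control 2 was the highest control, and the groups did not overlap. The log2 fold change was 1.47 (95% interval 0.92 to 2.02; limma adjusted p = 0.0357), and the call was lost without any single library other than control 2, with adjusted p-values of up to 0.251. Exons of Lamp1 share 9.3% of their bases with Grtp1 on the opposite strand, which was at 0.303 ± 0.524 RPKM in the controls, against 1.76 ± 0.507 RPKM in MycKO. Those of Ctsb share 12.8% with Fdft1, at 5.01 ± 3.41 and 4.82 ± 1.39 RPKM, and those of Hexa share 12.8% with Tmem202, also on the opposite strand. The reads of such pairs cannot be told apart without strand.

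The other 6 membrane and lipid transport genes did not pass. Lamp2, the partner of Lamp1 in the lysosomal membrane and in chaperone-mediated autophagy, was at 17.6, 19.7 and 14.2 RPKM in the controls, against 24.4 and 21.1 RPKM in MycKO 5 and 6. The groups did not overlap, yet the log2 fold change of 0.39 had a 95% interval of -0.04 to 0.83 (limma adjusted p = 0.431). Laptm5, a transmembrane protein gene of blood cells and the most abundant of these genes, was at 556.0, 562.8 and 430.1 RPKM in the controls, against 507.7 and 443.2 RPKM in MycKO 5 and 6. Neither gene of cholesterol export from lysosomes passed, and their difference was not tested. The soluble carrier gene Npc2 had 61.7 ± 6.83 and 83.9 ± 4.92 RPKM (log2 fold change 0.44, limma adjusted p = 0.183), and the membrane transporter gene Npc1 had 31.7 ± 3.17 and 31.6 ± 2.23 RPKM (95% interval -0.34 to 0.33). Scarb2, the receptor that carries glucocerebrosidase to lysosomes, had a log2 fold change of 0.32 (95% interval -0.03 to 0.68). Mcoln1, the lysosomal calcium channel gene, was at 12.9, 9.67 and 10.9 RPKM in the controls, against 7.05 and 19.9 RPKM in MycKO 5 and 6. The MycKO libraries lay on either side of the controls, and the value of MycKO 5 rested on 77 reads.

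No subunit gene of the proton pump passed, in either direction, of 14 tested and 17 listed. At an unadjusted p under 0.05 there were 2 (14.3%, close to the 13.2% over all genes), limma-voom called 0, and so did the authors' deposited test. Of the 2, Atp6v0a1 passed the filter only with the MycKO libraries. The other, Atp6v0b, was at 70.7 ± 1.61 and 86.3 ± 6.21 RPKM, without overlap. Its log2 fold change was 0.28 (95% interval 0.03 to 0.53; limma adjusted p = 0.319). The pump has a soluble V1 part that splits ATP and a membrane V0 part that passes protons. For the 12 subunit genes with a mean of at least 5 RPKM, the log2 fold changes ran from -0.14 (Atp6v1a) to 0.45 (Atp6v1g1), with a median of 0.03. Atp6v1f was at 123.9, 116.9 and 135.6 RPKM in the controls, against 139.1 and 170.4 RPKM in MycKO 5 and 6, and Atp6v0e at 145.8, 102.3 and 120.1 RPKM against 127.8 and 128 RPKM. These were the most abundant subunits, and of this pair only Atp6v1f had groups that did not overlap. Among the 12 subunit genes both MycKO libraries lay above all controls in 3 (Atp6v0b, Atp6v1f and Atp6v1g1), as they did in 18.8% of all genes tested. The interval was narrow for many of them: Atp6v1e1, a stalk subunit, was at 81.3 ± 7.46 and 80.5 ± 8.7 RPKM, with a 95% interval of -0.32 to 0.28. Atp6v0d1 had an interval of -0.37 to 0.32 and Atp6v1b2, a catalytic-head subunit, one of -0.15 to 0.45. The intervals of Atp6v1h (-0.64 to 0.60) and Atp6v1g1 (-0.12 to 1.03) were wider, and in both genes control 2 was the control farthest from the other two. The summed RPKM of all 17 was 752.7 to 783.1 in controls and 818.9 and 854.8 in MycKO 5 and 6.

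A few pump subunits known from specialised tissues or cell types were near the floor. Atp6v0d2, an isoform of osteoclasts and some macrophages, had 28, 0 and 0 reads in the controls, and was at 0 RPKM in MycKO 5 and at 3.83 RPKM in MycKO 6. Atp6v0a1, an isoform best known from neurons, was at 0, 0.433 and 1.62 RPKM in the controls, against 4.41 and 4.52 RPKM in MycKO 5 and 6, without overlap and without passing (limma adjusted p = 0.136). Atp6v1g2 stayed at 1.32 RPKM or less in every library, Atp6v0a4 at 0.776 RPKM or less, and Atp6v1g3 at 1.67 RPKM or less. Outside the symbol pattern, 7 further pump genes were examined, among them the a3 subunit gene Tcirg1 (49.9 ± 5.32 and 59.0 ± 3.24 RPKM) and the accessory gene Atp6ap2 (33.1 ± 3.22 and 41.4 ± 3.24 RPKM). None of the 6 tested passed, none had an unadjusted p under 0.05, and their median was 0.27.

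Tfeb, the regulator gene, was at 17.8, 18.9 and 15.8 RPKM in the controls, against 21.4 and 17.4 RPKM in MycKO 5 and 6. The groups overlapped, and the log2 fold change of 0.14 (95% interval -0.26 to 0.54) did not pass. None of 13 tested genes of its relatives and of the complexes that dock the kinase mTORC1 on lysosomes passed, with a median of 0.06 and 3 (23.1%) at an unadjusted p under 0.05, against 13.2% of all genes. One of the 3, Lamtor3, a subunit gene of the docking complex, was at lower values in MycKO (50.3 ± 3.7 and 40.2 ± 1.18 RPKM, log2 fold change -0.31) and did not pass the adjusted threshold. The smallest p-values there belonged to Tfec, a TFEB relative of macrophages (0.358 ± 0.31 and 1.96 ± 0.148 RPKM), and Fnip1, a partner of folliculin (9.28 ± 0.507 and 13.5 ± 1.02 RPKM). Tfec stayed below 1 RPKM in every control and passed the filter only with the MycKO libraries, so the 23.1% includes a gene kept by its rise. Likewise none of 9 genes of mannose 6-phosphate sorting, which sends new hydrolases to lysosomes, passed (median 0.05, with 2, or 22.2%, at an unadjusted p under 0.05). Sort1 (1.11 ± 0.687 and 6.30 ± 2.37 RPKM) and Gga2 (1.99 ± 1.18 and 4.70 ± 0.443 RPKM) had the smallest p-values.

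Lysosomal genes beyond the 44 formed 5 lists, and those of other soluble hydrolases and other membrane proteins held the only calls. Of 37 other soluble hydrolase genes, 1 rose: Asah1, the acid ceramidase gene, was at 18.3, 24.1 and 17.3 RPKM in the controls, against 50.5 and 51.7 RPKM in MycKO 5 and 6 (log2 fold change 1.33, limma adjusted p = 0.0214). The list's median was 0.31, and 12 (32.4%) had an unadjusted p under 0.05, against 13.2% of all genes, among them the phospholipase gene Pla2g15 (1.23, adjusted p = 0.0523). Of 21 other membrane proteins, 1 rose: Slc11a1, the metal ion transporter gene of macrophage phagosomes, was at 5.42, 4.51 and 4.61 RPKM in the controls, against 25.1 and 26.4 RPKM in MycKO 5 and 6 (2.20, limma adjusted p = 0.00776). That list's median was 0.16. The tetraspanin gene Cd63 was at 1.69 ± 1.14 and 7.64 ± 6.96 RPKM and did not pass. Over all 5 lists, 2 of 86 tested genes were called higher and none lower, against 1.24% and 0.0983% of all genes tested. An unadjusted p under 0.05 was reached by 19 of the 86 (22.1%), against 13.2% of all genes. The 19 include Tfec, which passed the filter only with the MycKO libraries.

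The excess over controls was not divided alike between the 2 MycKO libraries. It was taken as the RPKM in a MycKO library minus the control mean, for genes in which both MycKO libraries lay above all controls. Of the 18 macrophage markers 17 qualified, and 14 of the 17 had more excess in MycKO 6, with a median MycKO 5 to MycKO 6 ratio of 0.625. Lyz2 did not qualify and leaned the other way, with an excess of 608.0 and 84.9 RPKM in MycKO 5 and 6. Summed over all 18 markers, the levels were nearly equal, at 1660.9 and 1671.3 RPKM. The 6 dendritic cell markers had more in MycKO 5, in 6 of 6, with a median ratio of 2.88, and 5 of 6 neutrophil markers did too, with a median of 2.81. A lean to MycKO 6 was not particular to macrophage markers, as 5 of 6 T cell markers had it, with a median of 0.672. The medians were 1.22 for 5 B and plasma cell markers, 6.08 for 2 basophil and mast cell markers and 1.92 for 5 erythroid and platelet markers. Of the 8 lysosomal genes that rose, 5 had more in MycKO 6. Lgmn had a ratio of 0.684 (26 and 38 RPKM of excess in MycKO 5 and 6), Creg1 0.823 (48.4 and 58.9 RPKM), Ctsb 0.837 (99.2 and 118.6 RPKM), Hexa 0.841 (20.8 and 24.7 RPKM) and Lamp1 0.980 (73.4 and 74.9 RPKM). The 17 macrophage markers ran from 0.276 to 6.51, with the complement genes C1qa and C1qb at 0.872 and 0.852.

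The other 3 that rose had more in MycKO 5. Ctss had a ratio of 1.62, Cd68 1.39 and Ctsh 1.34. Ratios above 1 were also found for the macrophage markers Csf1r (1.12), Fcgr1 (2.43) and Siglec1 (6.51), and for the MHC class II gene H2-Ab1 (2.13) among the dendritic cell markers. Ctsz, at 3.43, and Psap, at 1.85, leaned the same way. Among the markers of highest level, Lyz2 was at 102.0, 219.7 and 55.1 RPKM in the controls, against 733.6 and 210.5 RPKM in MycKO 5 and 6, so that MycKO 6 lay below control 2. Hmox1 was at 42.5, 50.6 and 57.2 RPKM in the controls, against 121.9 and 293.2 RPKM in MycKO 5 and 6, and Vcam1 at 25.8 ± 7.89 and 153.6 ± 73.7 RPKM. Other macrophage markers were closer between the MycKO libraries, such as C1qb, at 129.4 and 147.6 RPKM, and Adgre1, at 40.9 and 41.3 RPKM in MycKO 5 and 6. A call by limma favours genes that are alike in both MycKO libraries, so the closeness of the 8 ratios to 1 is in part set by how the genes were called. What part the RNA of macrophages or dendritic cells had in the rises of the 8 genes was not tested.

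**Figure D3:**
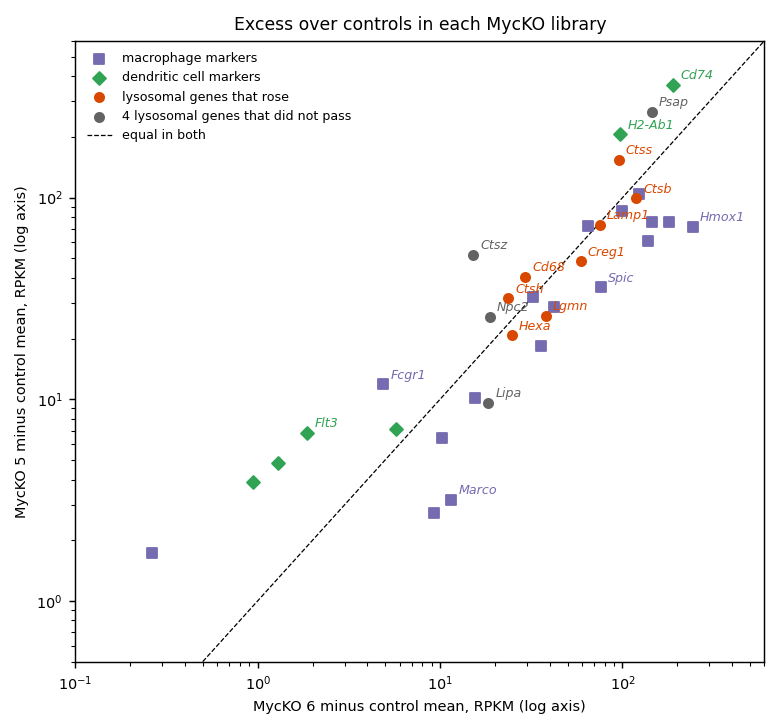
RPKM in MycKO 5 minus the control mean against the same in MycKO 6, both on log axes, for genes in which both MycKO libraries lay above all controls. Lamp1, Ctsb, Creg1, Hexa and Lgmn lie on or just below the line of equal excess, while Ctss, Cd68 and Ctsh lie above it, on the side that holds the 6 dendritic cell markers and 3 of the 17 macrophage markers.

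Within the controls, neither the lysosomal genes nor the macrophage markers shared 1 order. Control 2 was highest for 21 of the 44 lysosomal genes and for 5 of the 18 macrophage markers, and control 3 for 8 and 10 of them. Cd68, Ctss, Ctsb and Psap were highest in control 2 and lowest in control 3. The same held for 7 lysosomal genes that did not pass, among them Laptm5, Npc1 and Tfeb, and for the macrophage markers Lyz2, Csf1r, Adgre1 and Fcgr1. Creg1 and Hexa were highest in control 1 and lowest in control 2, as were C1qa and Marco. Ctsh was highest in control 3 and lowest in control 2, as were C1qb, Cd163 and Slc40a1. Lgmn was highest in control 3 and lowest in control 1, as were 7 macrophage markers, among them Spic and Vcam1. Lamp1 spanned 89.1 to 94.0 RPKM. The summed macrophage markers spanned 308.3 to 442.4 RPKM, a span that came mostly from Lyz2 (102.0, 219.7 and 55.1 RPKM in controls 1, 2 and 3).

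Promoters of the lysosomal genes were examined for the E-box, because MYC and TFEB are both known to bind it and the members' promoters can be read side by side. RefSeq windows (GRCm38.p6, from 250 bases before to 50 after a start) were found for 34 of the 44 genes. The 10 without a window included Ctsb and Ctsh, which rose, so their promoters were not searched. The letters CACGTG, which read the same on both strands, occurred in windows of 13 of the 34 genes (38.2%), against 8.09% of all 27025 genes in that table. Among genes with a window, 2 of 6 that rose held it and 11 of 26 that did not pass. The longer TCACGTGA, the palindrome at the core of the element bound by TFEB, contains CACGTG and occurred in 6 of the 34 (17.6%), against 1.12% of all genes. None of the 6 risen genes with a window held it, but 6 genes are too few to compare shares.

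The 2 risen genes with CACGTG were Lamp1 and Lgmn, and the 250 bases before the start are shown for both, with each CACGTG in capitals. Lamp1 held 4 copies, starting 61, 45, 28 and 15 bases before the start. No other window of the 34 genes held more than 2. Lgmn held 1 copy, 49 bases before the start that lies inside the gene as annotated, and none in the window of its outer start.
Lamp1 (chr8:13158911-13159160, plus strand): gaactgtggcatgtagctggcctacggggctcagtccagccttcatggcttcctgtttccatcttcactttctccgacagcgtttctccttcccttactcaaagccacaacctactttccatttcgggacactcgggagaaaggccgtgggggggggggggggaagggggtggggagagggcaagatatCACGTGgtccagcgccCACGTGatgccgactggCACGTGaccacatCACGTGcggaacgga
Lgmn (chr12:102439093-102439342, minus strand): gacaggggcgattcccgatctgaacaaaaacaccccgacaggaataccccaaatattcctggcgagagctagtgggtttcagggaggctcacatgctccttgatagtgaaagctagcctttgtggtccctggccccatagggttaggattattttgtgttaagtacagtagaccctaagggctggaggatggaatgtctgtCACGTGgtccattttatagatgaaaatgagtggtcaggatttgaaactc

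The 6 genes with TCACGTGA are shown as 28 bases around it, again with CACGTG in capitals. Among the 34 genes with a window only these 6 held TCACGTGA, and none of the 6 passed. Closeness to the full TFEB element was not scored, so the genes are not ranked by it. Ctsd carried its copy 98 bases before the start, Mcoln1 45 bases and Atp6v1a 131 bases before it, as counted to CACGTG. In Atp6v0d1, Atp6v0e and Ctsa the copies lay within 12 bases of the start, and Ctsa held 2 of them. For Ctsa and Atp6v0e that start lies inside the gene as annotated, and the window of the outer Ctsa start held no CACGTG.
Ctsd (chr7:142387909-142387936, minus strand): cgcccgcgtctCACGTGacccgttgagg
Mcoln1 (chr8:3500463-3500490, plus strand): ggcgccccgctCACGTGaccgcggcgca
Ctsa (chr2:164833750-164833777, plus strand): gagcaaactgtCACGTGatgcagatgct
Ctsa (chr2:164833767-164833794, plus strand): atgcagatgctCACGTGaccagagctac
Atp6v0d1 (chr8:105566051-105566078, minus strand): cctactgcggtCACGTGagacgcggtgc
Atp6v0e (chr17:26676388-26676415, plus strand): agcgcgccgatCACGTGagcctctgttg
Atp6v1a (chr16:44139374-44139401, minus strand): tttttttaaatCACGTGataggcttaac

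The log2 fold changes of these 6 genes were 0.14 (Ctsa), 0.10 (Mcoln1), 0.07 (Atp6v0e), 0.04 (Ctsd), -0.03 (Atp6v0d1) and -0.14 (Atp6v1a). Among genes with CACGTG but not TCACGTGA, the values ran from -0.20 (Glb1), 0.28 (Atp6v0b) and 0.36 (Gaa) to 1.82 (Lgmn). Creg1, Cd68, Ctss and Hexa rose and held no CACGTG in the window. A match is a description of the letters, and no binding was measured.

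**Figure D4:**
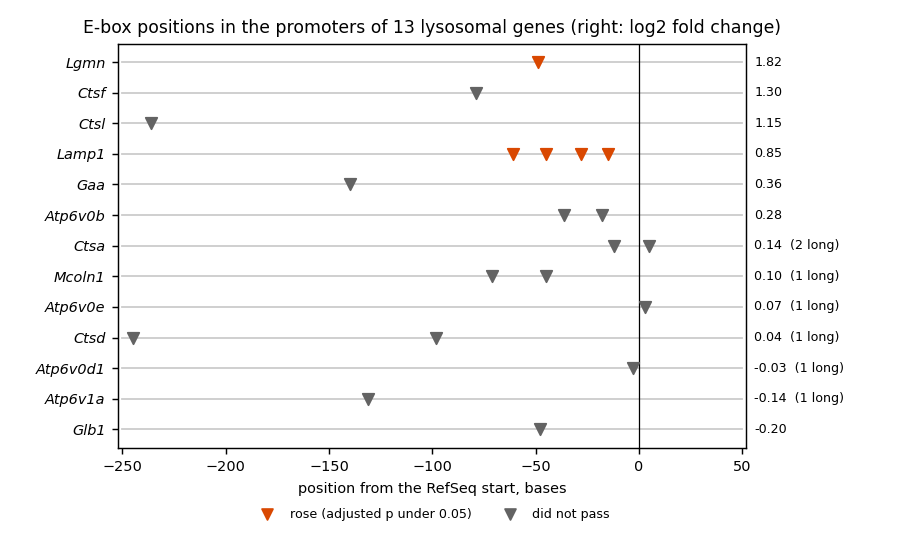
Position of each CACGTG from the RefSeq start, in bases, in the 13 lysosomal genes that hold one, ordered by log2 fold change (right; "long" counts TCACGTGA). Orange marks the 2 genes that rose, and Lamp1 is the gene with 4 copies.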

How the data were processed

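The authors deposited 1 table of 13004 genes. Per the file headers, it gives a value per library, taken here as the authors' RPKM, the authors' mean normalized signal overall and per group, the deposited ratio of those means, its deposited log2, and a p-value with its adjusted form from a test by the authors. Per the submitters' processing notes, TopHat and edgeR were used, in no named role, with build mm10. The sources used here give neither the authors' test nor the annotation, nor whether counting used strand.

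RPKM values were analysed as log2(RPKM + 1) with limma 3.58.1 in R 4.3.3 (with a variance trend; degrees of freedom were 3 residual and 4.41 prior), two-sided. Benjamini-Hochberg adjustment ran over the 11190 genes that reached 1 RPKM in 2 or more libraries, and the threshold was 0.05. Reads behind each value, worked out from the RPKM values and the group means, were whole within 0.01 of a read and were used for depth and limma-voom. Coordinates are from GENCODE vM21 on mm10, and promoters from RefSeq. The procedure was tested on simulated data. Figures were drawn with matplotlib 3.10.9.

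The members, role groups, gene lists and cell markers were chosen with earlier results of these data known. Library values are given for members that passed, for the 2 most abundant per role, and for Lamp2, Tfeb and Mcoln1. Outside the members, the 2 genes of smallest p per lysosomal list and the most abundant markers are named. Other genes named, and the 6 genes shown for TCACGTGA, were chosen after their values were seen. Alternatives were pseudocount, filter, scaling, variance trend, limma-voom, the authors' test, a stricter threshold and leaving out each library.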

Additional observations from a re-analysis of the deposited data

How the results depend on the processing

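The number of lysosomal genes called higher was 8. It became 5 with a pseudocount of 0.1, 3 without the variance trend and 3 at an adjusted p under 0.01, all among the 8. Under the other scalings and filters it was 6 to 8, also all among the 8. All 8 were also among the 9 called by limma-voom and the 10 of the authors' deposited test. Leaving out 1 library gave 3 to 8 genes, of which 7 were among the 8 without control 2 (Hexa lost, Psap added), 2 without MycKO 6 (Ctsz added) and 3 without each of the others. With 1 MycKO library left, it was assumed to vary like the controls. No lysosomal gene was called lower under any of these. Over all genes, 139 were called higher and 11 lower. These became 75 and 5 with a pseudocount of 0.1 and 377 and 65 in the authors' deposited test. Those lower were 2 without the variance trend and 27 in limma-voom. Leaving out 1 library gave 31 (without MycKO 5) to 199 (without control 2) higher and 0 to 18 lower. Of the other lysosomal genes, 2 were called higher, against 1 without the variance trend, 1 at an adjusted p under 0.01, 6 in limma-voom, 10 in the authors' deposited test, and 1 to 4 without 1 library. The letters CACGTG occurred for 13 members and TCACGTGA for 6. Among genes that did not pass, the log2 fold change of Ctsd turned to -0.013 under median-of-ratios scaling, -0.0028 under upper-quartile scaling and -0.017 in the authors' deposited table. Without 1 library it ranged from -0.059 to 0.14, and was -0.0035 without control 3. Atp6v0e turned to -0.0016 in the authors' deposited table and ranged from -0.049 to 0.20 without 1 library. In the same way Ctse ranged from -0.32 to 0.19, Mcoln1 from -0.59 to 0.79 and Tfeb from -0.0019 to 0.28. The cause was not tested. No paired analysis was possible because the groups share no replicate number. The 5451728 reads of MycKO 5 limit genes of low level.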
